A study of Homo sapiens with 4 samples.

Results

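Transcripts of 40 autophagy and mitophagy genes were followed through knockdown of c-Myc, of Bcl-2 and of both in MOLM-13, an established human line of acute myeloid leukaemia that carries a KMT2A fusion. The genes were taken by symbol, and all 40 were found among the 24940 genes of the count table. The sh-c-Myc library came from cells with a doxycycline-induced short hairpin against c-Myc, the sh-Bcl2 library from cells with one against Bcl-2, and the library sh-c-Myc and sh-Bcl2, called the double knockdown here, from cells with both. The shControl library came from cells labelled as a negative control and was induced with doxycycline as well. All cells had been infected with lentivirus and selected with 0.5 μg/ml puromycin or 600 μg/ml G418, and the labels do not say which drug each line received. Each group held 1 library of 1 cell line, so a difference between 2 libraries has no replicate check, and a difference between cultures cannot be told apart from an effect of a hairpin.

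Autophagy encloses cytoplasm in a double membrane and delivers it to the lysosome. The ULK1 kinase complex starts the process, a lipid kinase complex around Beclin 1 marks the forming membrane, and lipid supply and ubiquitin-like conjugation of LC3 and GABARAP proteins let it grow and close. Cargo receptors tie proteins or organelles to LC3, and in mitophagy PINK1 or receptors in the outer mitochondrial membrane direct the machinery to mitochondria. BCL-2 binds Beclin 1, and TFEB and TFE3 activate autophagy and lysosome genes through the CACGTG-type sites that MYC also recognises.

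Library totals lay between 14421558 and 15691129 counts. In the check of the targets, MYC stood at 278 CPM in sh-c-Myc and 302 CPM in the double knockdown, against 364 CPM in sh-Bcl2 and 434 CPM in shControl, and BCL2 at 38.7 CPM in sh-Bcl2 and 44.5 CPM in the double knockdown, against 112 CPM in sh-c-Myc and 119.7 CPM in shControl. CPM are counts relative to library size, scaled with TMM factors. Of 9 myeloid leukaemia markers, 8 reached 1 CPM in every library, while 0 of 5 T cell markers were matched to a row, the B cell markers summed to at most 5.26 CPM and the erythroid markers to at most 0.577 CPM. The 19 monocyte and macrophage markers summed to 1385 CPM in sh-c-Myc, 756 CPM in sh-Bcl2, 1487 CPM in the double knockdown and 563 CPM in shControl. In these bulk libraries fewer cells of a type and less RNA per cell cannot be told apart.

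The autophagy genes were expressed over a wide range of levels. Per gene length, the median of the 40 members was 8.29 FPKM in sh-c-Myc, 6.96 FPKM in sh-Bcl2, 7.54 FPKM in the double knockdown and 6.73 FPKM in shControl, and 36 of the 40 held at least 1 FPKM in every library. The highest was FKBP8, an outer mitochondrial membrane protein that binds LC3 and BCL-2, with 97.0 FPKM in sh-c-Myc, 72.4 FPKM in sh-Bcl2, 75.0 FPKM in the double knockdown and 99.0 FPKM in shControl. In shControl the cargo receptor TAX1BP1 followed at 23.1 FPKM, then ATG13, a regulatory subunit of the ULK1 complex, at 13.9 FPKM. At the low end of the measured genes in shControl were WIPI1 at 0.892 FPKM, ATG10, the E2-like enzyme for ATG12, at 1.16 FPKM and PINK1 at 1.23 FPKM.

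**Figure D1:**
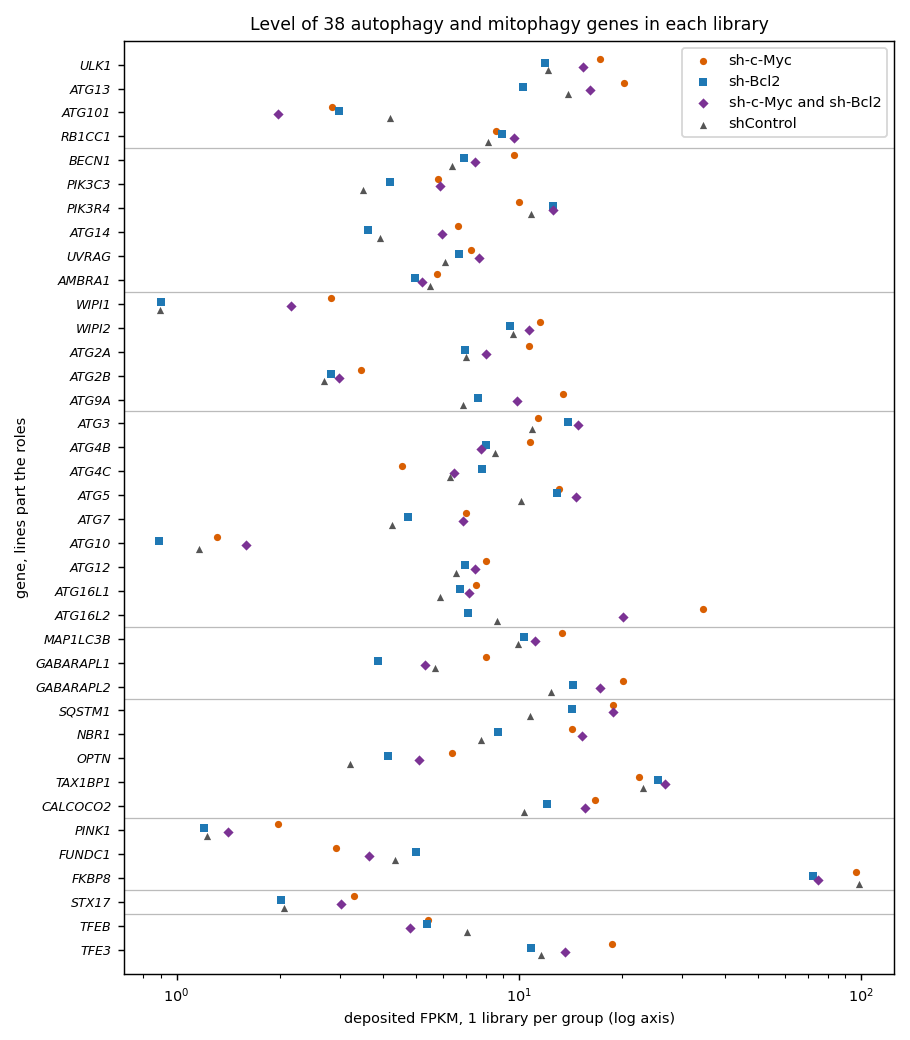
Deposited FPKM on a log axis for the 38 genes that reached 1 CPM in a library, 1 point per library and group, with lines that part the roles. FKBP8 stands far right at 72.4 to 99.0 FPKM, and ATG16L2 spreads widest, from 7.13 FPKM in sh-Bcl2 to 34.6 FPKM in sh-c-Myc.

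GABARAP and ULK2 were not measurable. GABARAP had 0 counts in sh-c-Myc, 3 in sh-Bcl2, 0 in the double knockdown and 1 in shControl. Of its annotated exonic bases 55.7% also belong to another gene, and 30.5% are shared with the coding gene AC120057.2 on the same strand. AC120057.2 was looked up by name and not matched to a row of the count table. ULK2, a paralogue of ULK1, had 1 count in sh-c-Myc, 0 in sh-Bcl2, 1 in the double knockdown and 0 in shControl. A count of 0 allows up to 3 counts, which is 0.192 CPM in sh-c-Myc and 0.213 CPM in shControl. Ratios are given for the other 38 members, of which all passed the filter of 1 CPM in at least 1 library. Counts are uncertain for 7 of them because over 10% of their exonic bases lie in another gene and the sources used here do not give the strand setting of the counting. These are PINK1 (41.7%), ATG9A (38.8%), WIPI1 (28.1%), SQSTM1 (22.0%), ATG101 (19.2%), ATG7 (18.1%) and BECN1 (17.1%).

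The first question was how these genes stood in cells with the c-Myc hairpin. Of the 38 members, 9 rose with this hairpin and 0 fell, among them the ATG16L1 paralogue ATG16L2, the phosphoinositide-binding protein gene WIPI1 and the cargo receptor genes NBR1 and SQSTM1. The other 5 were ATG13 in initiation, ATG14 and PIK3C3 in the lipid kinase, ATG9A in membrane supply and ATG7 in conjugation. The test was edgeR's quasi-likelihood test of 1 term per hairpin over all 4 libraries, with Benjamini-Hochberg adjustment over 12855 genes and a threshold of 0.05. Over all those genes 9.24% rose and 14.2% fell. The median log2 fold change was 0.25 for the members and -0.02 for all genes tested. Above 0 were 28 of the 38, and over all genes tested 0 lay between percentiles 51 and 52 (-0.01 and 0.003). At an unadjusted p under 0.05, 14 of the 38 members passed, 12 higher and 2 lower, and 37.1% of all genes did. The shares by direction over all genes were not computed at this threshold, so the 12 and 2 have no comparator. With its 1 residual degree of freedom the fit cannot part library spread from non-additive effects. Of the 9, 6 had an adjusted p between 0.0373 and 0.0483, and the count was 3 with DESeq2, 4 with edgeR on DESeq2 size factors, 15 with total counts and 14 with upper quartile factors. The 3 called in all 7 alternative fits were ATG16L2, WIPI1 and NBR1, genes of conjugation, membrane supply and cargo capture. No initiation or lipid kinase gene was called in every fit.

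**Figure D2:**
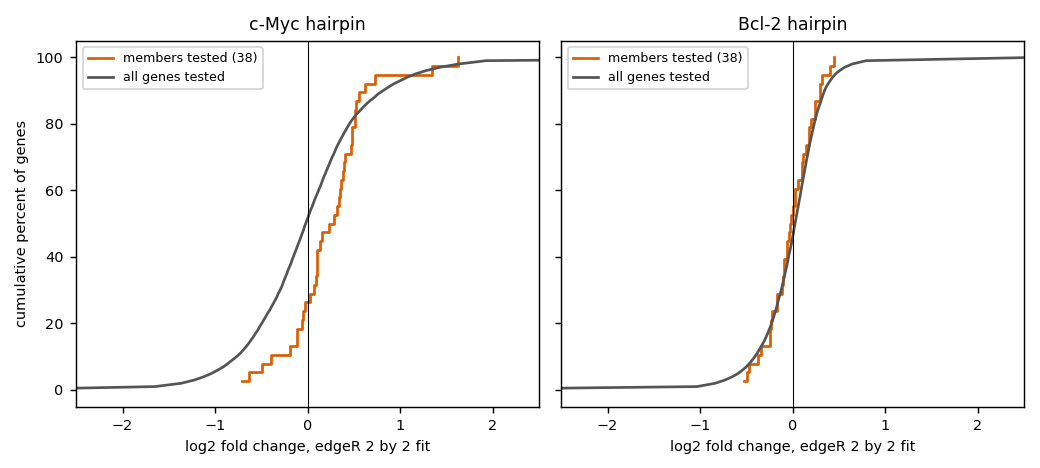
Cumulative percent of genes (y axis) against the log2 fold change of the 2 by 2 edgeR fit (x axis) for the c-Myc hairpin (left) and the Bcl-2 hairpin (right), with the 38 tested members in orange and all tested genes in grey. For the c-Myc hairpin the members' curve lies to the right over most of its length (median 0.25 against -0.02), and for the Bcl-2 hairpin both curves run close together (median -0.03 against 0.02).

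The layout holds 2 pairs of libraries that differ by the c-Myc hairpin and share no library, sh-c-Myc over shControl and the double knockdown over sh-Bcl2. In both pairs 18 of 38 members were higher, with 95% counting intervals that exclude a ratio of 1, where 19.4% of 13646 genes were. In both pairs 4 members were lower, namely ATG101, ATG4C, FUNDC1 and TFEB, where 25.2% of all genes were. No member was higher in one pair and lower in the other with both intervals off 1 (0 of 38), against 2.76% of genes. At 1.5-fold in both pairs 3 members were higher, ATG16L2, NBR1 and WIPI1 (all genes 7.84%), and 1 was lower, ATG101 (all genes 7.83%). At 2-fold in both pairs 2 were higher (all genes 3.49%) and 0 lower (all genes 2.18%). The intervals cover counting error only, and both pairs use the same hairpin.

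**Figure D3:**
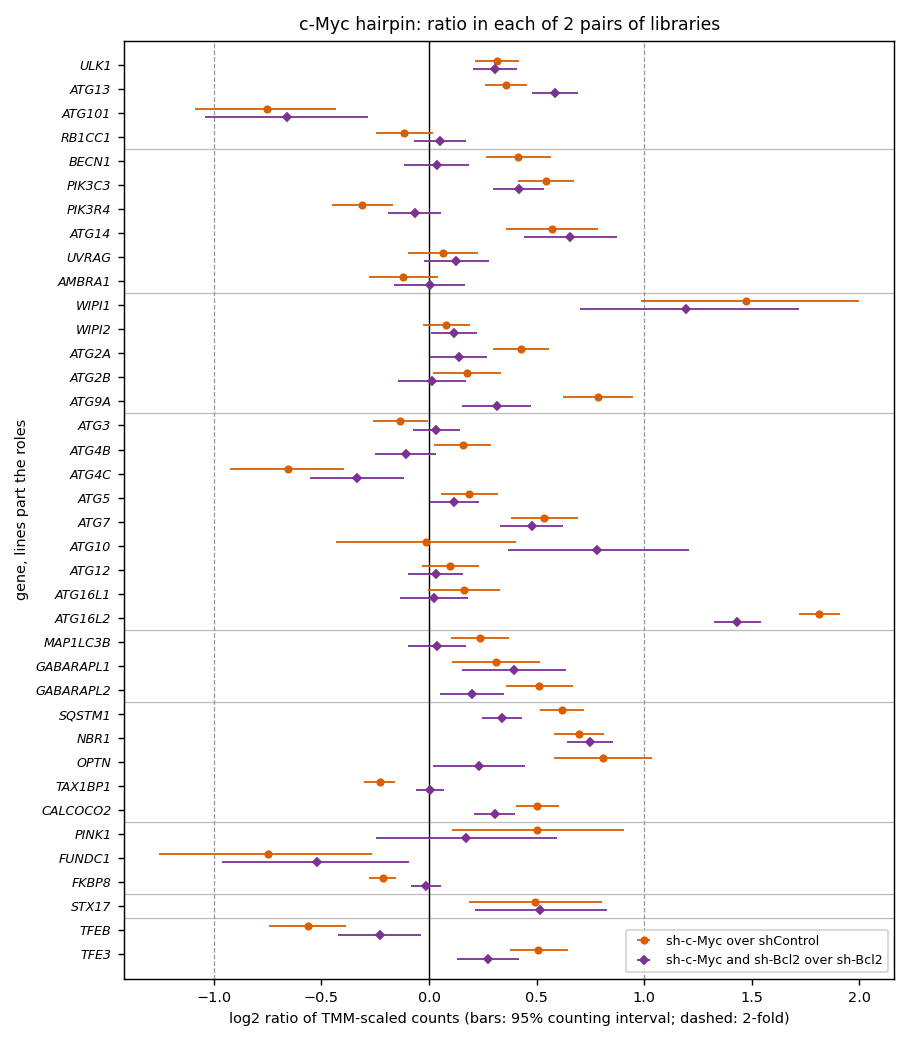
Log2 ratio of TMM-scaled counts for the c-Myc hairpin in 2 pairs of libraries, sh-c-Myc over shControl (orange circles) and the double knockdown over sh-Bcl2 (purple diamonds), with bars for the 95% counting interval and dashed lines at 2-fold. ATG16L2 lies at 1.81 and 1.43 and WIPI1 at 1.47 and 1.19, and ATG101 lies below 0 in both pairs at -0.75 and -0.66.

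ATG16L2 (chromosome 11, 72814308 to 72843674, GRCh38) was the member with the largest rise. It encodes a paralogue of ATG16L1, the protein that directs the ATG12-ATG5 conjugate to the forming membrane. It stood at 276 CPM in sh-c-Myc against 78.4 CPM in shControl, and at 172 CPM in the double knockdown against 63.7 CPM in sh-Bcl2. Both libraries with the c-Myc hairpin were above both without it. The log2 fold change for the hairpin was 1.62 ± 0.17 (SE from the F statistic), a 3.08-fold rise, with an edgeR adjusted p of 0.000267. FCHSD2, which shares 7.89% of its exonic bases on the other strand, stood at 230.3 CPM in sh-c-Myc against 206 CPM in shControl and at 175 CPM in the double knockdown against 224 CPM in sh-Bcl2. ATG16L1 itself stood at 41.8 CPM in sh-c-Myc against 37.4 CPM in shControl, and at 42.9 CPM in the double knockdown against 42.2 CPM in sh-Bcl2 (edgeR adjusted p = 0.730). Per gene length ATG16L2 was the second of the 40 members in sh-c-Myc at 34.6 FPKM, and it ranked 14 in shControl at 8.64 FPKM.

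WIPI1 (chromosome 17, 68420948 to 68457513) encodes a protein that binds the lipid made by the Beclin 1 complex. It was low throughout, at 8.91 CPM in sh-c-Myc against 3.19 CPM in shControl and 7.29 CPM in the double knockdown against 3.17 CPM in sh-Bcl2. Its log2 fold change was 1.34 ± 0.33 (SE), with an edgeR adjusted p of 0.0125. ARSG, the gene on the other strand that shares 24.3% of WIPI1's exonic bases, stood at 5.77 CPM in sh-c-Myc against 3.62 CPM in shControl and at 7.42 CPM in the double knockdown against 5.02 CPM in sh-Bcl2, and its part in the WIPI1 counts was not tested. WIPI2, the paralogue that recruits ATG16L1, stood at 95.9 CPM in sh-c-Myc against 90.6 CPM in shControl and had an edgeR adjusted p of 0.677.

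NBR1 (chromosome 17, 43170481 to 43211689), a receptor for ubiquitinated cargo, stood at 111 CPM in sh-c-Myc against 68.6 CPM in shControl and at 128 CPM in the double knockdown against 76.0 CPM in sh-Bcl2. Its log2 fold change was 0.72 ± 0.16 (SE), with an edgeR adjusted p of 0.00702. SQSTM1, which encodes the receptor p62, stood at 134 CPM in sh-c-Myc against 87.0 CPM in shControl and at 143 CPM in the double knockdown against 113 CPM in sh-Bcl2 (log2 fold change 0.48 ± 0.16, edgeR adjusted p = 0.0448). In both receptor genes the libraries with the c-Myc hairpin lay above those without it. MRNIP, on the other strand, shares 20.7% of SQSTM1's exonic bases. It stood at 16.8 CPM in sh-c-Myc against 11.9 CPM in shControl and at 13.2 CPM in the double knockdown against 13.0 CPM in sh-Bcl2. The part of MRNIP in the SQSTM1 counts was not tested. OPTN, a receptor that acts in PINK1-Parkin mitophagy, stood at 30.3 CPM in sh-c-Myc against 17.3 CPM in shControl and at 26.0 CPM in the double knockdown against 22.1 CPM in sh-Bcl2, and did not pass (edgeR adjusted p = 0.0973). CALCOCO2, which encodes the receptor NDP52, had a log2 fold change of 0.40 (edgeR adjusted p = 0.0786). TAX1BP1 was the receptor gene without a positive value, at -0.11 (edgeR adjusted p = 0.642).

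In the initiation complex, ATG13 (chromosome 11, 46617527 to 46674818) stood at 131 CPM in sh-c-Myc against 102 CPM in shControl and at 112 CPM in the double knockdown against 74.6 CPM in sh-Bcl2 (log2 fold change 0.47 ± 0.16, edgeR adjusted p = 0.0483). The kinase gene ULK1 stood at 122 CPM in sh-c-Myc against 97.7 CPM in shControl and at 116 CPM in the double knockdown against 94.2 CPM in sh-Bcl2, and did not pass (edgeR adjusted p = 0.160). ATG101, which encodes the partner that stabilises ATG13, pointed the other way. It stood at 8.40 CPM in sh-c-Myc against 14.2 CPM in shControl and at 6.27 CPM in the double knockdown against 9.91 CPM in sh-Bcl2 (log2 fold change -0.71 ± 0.26, edgeR adjusted p = 0.0685). RB1CC1, which encodes the scaffold FIP200, had a log2 fold change of -0.03.

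Of the 6 genes of the lipid kinase complexes, ATG14 and PIK3C3 rose. ATG14 encodes the subunit that places the complex at the autophagosome, and it stood at 31.0 CPM in sh-c-Myc against 20.9 CPM in shControl and at 29.9 CPM in the double knockdown against 19.0 CPM in sh-Bcl2 (log2 fold change 0.61 ± 0.19, edgeR adjusted p = 0.0373). PIK3C3, the catalytic subunit VPS34, stood at 81.8 CPM in sh-c-Myc against 56.1 CPM in shControl and at 88.7 CPM in the double knockdown against 66.5 CPM in sh-Bcl2 (log2 fold change 0.48 ± 0.16, edgeR adjusted p = 0.0478). With a trend on GC content and length removed, the PIK3C3 log2 ratio of sh-c-Myc to shControl was 0.31 in place of 0.54. BECN1, which encodes the BCL-2 partner Beclin 1, stood at 57.5 CPM in sh-c-Myc against 43.1 CPM in shControl and at 47.3 CPM in the double knockdown against 46.1 CPM in sh-Bcl2 (edgeR adjusted p = 0.371). The regulatory subunit gene PIK3R4 and the cofactor genes UVRAG and AMBRA1 had log2 fold changes of -0.19, 0.10 and -0.06 and did not pass.

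In membrane supply and conjugation, ATG9A and ATG7 completed the genes that rose. ATG9A encodes the lipid scramblase of the vesicles that seed the membrane, and stood at 58.9 CPM in sh-c-Myc against 34.2 CPM in shControl and at 46.3 CPM in the double knockdown against 37.3 CPM in sh-Bcl2 (log2 fold change 0.55 ± 0.18, edgeR adjusted p = 0.0444). Its same-strand partner AC068946.2 had at most 1 count in a library, and the effect of their overlap on the ATG9A counts was not tested. ATG7, the E1-like enzyme of both conjugation systems, stood at 57.3 CPM in sh-c-Myc against 39.5 CPM in shControl and at 60.3 CPM in the double knockdown against 43.3 CPM in sh-Bcl2 (log2 fold change 0.51 ± 0.16, edgeR adjusted p = 0.0417). VGLL4, on the other strand, shares 18.1% of ATG7's exonic bases. It stood at 44.0 CPM in sh-c-Myc against 59.5 CPM in shControl and at 46.7 CPM in the double knockdown against 49.7 CPM in sh-Bcl2. The protease gene ATG4C stood at 13.1 CPM in sh-c-Myc against 20.7 CPM in shControl and at 19.96 CPM in the double knockdown against 25.2 CPM in sh-Bcl2, and did not pass (edgeR adjusted p = 0.110). The lipid transfer genes ATG2A and ATG2B and the conjugation genes ATG3, ATG4B, ATG5, ATG10, ATG12 and ATG16L1 did not pass either, with log2 fold changes between -0.05 and 0.38.

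None of the 3 measured LC3 and GABARAP genes passed the c-Myc hairpin test. MAP1LC3B, which encodes the main LC3 protein, stood at 65.5 CPM in sh-c-Myc against 55.6 CPM in shControl and at 58.7 CPM in the double knockdown against 57.2 CPM in sh-Bcl2 (edgeR adjusted p = 0.577). GABARAPL2 stood at 56.7 CPM in sh-c-Myc against 39.7 CPM in shControl and at 51.9 CPM in the double knockdown against 45.3 CPM in sh-Bcl2 (edgeR adjusted p = 0.149). GABARAPL1 stood at 30.3 CPM in sh-c-Myc against 24.4 CPM in shControl (edgeR adjusted p = 0.215). Of the mitophagy genes, the kinase gene PINK1 stood at 8.85 CPM in sh-c-Myc against 6.25 CPM in shControl. In the double knockdown it stood at 6.78 CPM against 6.01 CPM in sh-Bcl2. PINK1-AS, on the other strand, shares 39.4% of PINK1's exonic bases and stood at 2.48 CPM in shControl to 3.97 CPM in the double knockdown. The part of PINK1-AS in the PINK1 counts was not tested. The receptor gene FUNDC1 stood at 3.78 CPM in sh-c-Myc against 6.39 CPM in shControl and at 5.05 CPM in the double knockdown against 7.27 CPM in sh-Bcl2. Neither passed, with edgeR adjusted p-values of 0.434 for PINK1 and 0.170 for FUNDC1. The fusion SNARE gene STX17 had a log2 fold change of 0.51 (edgeR adjusted p = 0.144).

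The transcription factor genes TFEB and TFE3 had opposite signs. TFEB stood at 28.4 CPM in sh-c-Myc against 42.0 CPM in shControl and at 26.9 CPM in the double knockdown against 31.5 CPM in sh-Bcl2. TFE3 stood at 74.3 CPM in sh-c-Myc against 52.2 CPM in shControl and at 58.1 CPM in the double knockdown against 48.1 CPM in sh-Bcl2. Log2 fold changes for the c-Myc hairpin were -0.40 ± 0.18 for TFEB and 0.39 ± 0.16 for TFE3, with edgeR adjusted p-values of 0.136 and 0.105, so neither passed.

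Promoter sequence was compared because MYC and the TFEB family share the hexamer CACGTG. RefSeq promoters on GRCh38.p14, from 250 bases before to 50 bases after the start, were matched for 35 members. CACGTG, which reads the same on both strands, was found in 2 of the 35, ATG14 and ATG3, and in 7.26% of all 35116 promoters. The longer TCACGTGA, which contains it, was found in ATG3 alone among the 35 and in 0.98% of all. Of the 9 genes that rose with the c-Myc hairpin, ATG14 alone held the hexamer, and ATG3 held it with a log2 fold change of -0.05. The 250 bases before the start are shown for these 2 genes and for ATG16L2 and WIPI1, which had the largest rises, with CACGTG in capitals.
ATG14 (chr14:55411831-55412080, - strand): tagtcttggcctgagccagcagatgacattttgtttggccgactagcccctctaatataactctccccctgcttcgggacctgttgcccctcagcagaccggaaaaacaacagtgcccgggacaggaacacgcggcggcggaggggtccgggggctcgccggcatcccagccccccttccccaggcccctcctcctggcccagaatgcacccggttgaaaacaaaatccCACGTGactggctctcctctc
ATG3 (chr3:112561963-112562212, - strand): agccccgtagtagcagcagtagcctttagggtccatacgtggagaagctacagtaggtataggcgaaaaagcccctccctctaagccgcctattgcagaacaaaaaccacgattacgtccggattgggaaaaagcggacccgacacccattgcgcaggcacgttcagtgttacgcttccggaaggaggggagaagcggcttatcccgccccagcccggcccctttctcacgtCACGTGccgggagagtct
ATG16L2 (chr11:72814161-72814410, + strand): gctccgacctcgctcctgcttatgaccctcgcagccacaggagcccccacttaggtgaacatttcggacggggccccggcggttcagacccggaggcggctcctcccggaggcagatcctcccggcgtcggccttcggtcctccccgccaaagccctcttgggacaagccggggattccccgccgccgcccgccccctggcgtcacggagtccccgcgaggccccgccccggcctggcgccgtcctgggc
WIPI1 (chr17:68457497-68457746, - strand): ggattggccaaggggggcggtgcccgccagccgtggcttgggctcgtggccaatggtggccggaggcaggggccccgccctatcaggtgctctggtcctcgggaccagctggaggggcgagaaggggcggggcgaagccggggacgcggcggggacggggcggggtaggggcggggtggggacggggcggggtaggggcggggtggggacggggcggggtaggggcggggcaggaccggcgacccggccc
The hexamer begins 21 bases before the RefSeq start of ATG14, and the match shown for ATG3 begins 18 bases before its RefSeq start. The GENCODE coordinates used for the genes here differ from these starts. They place each gene's first base within its window, at 72814308 for ATG16L2, so some bases shown lie inside the GENCODE gene. ATG3 holds 2 matches, and the other, which is the one within TCACGTGA, lies after the start and outside the bases shown. The letters CACGTG are not in the windows of ATG16L2 and WIPI1. A match is a description of the letters and not a site of binding.

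At 2-fold, few members were called in the separate comparisons with the c-Myc hairpin. In sh-c-Myc against shControl 2 were higher and 0 lower, where 12.5% and 9.85% of 13646 genes were, and the double knockdown over sh-Bcl2 had 2 higher and 0 lower, where 5.22% and 3.62% were. Both times they were ATG16L2 and WIPI1. At 1.5-fold sh-c-Myc had 6 higher and 3 lower (all genes 19.8% and 20.5%), and the double knockdown over sh-Bcl2 had 5 higher and 1 lower (all genes 10.7% and 10.6%), which are shares near the background for the higher genes. With intervals off a ratio of 1 at any size, sh-c-Myc over shControl had 23 members higher and 8 lower (all genes 33% and 37.3%). In the double knockdown over sh-Bcl2 these were 20 and 4 (all genes 27.1% and 30.7%). The members' median log2 ratio was 0.27 in sh-c-Myc over shControl, with -0.02 for all genes. It was 0.13 in the double knockdown over sh-Bcl2, with -0.01 for all genes. Total-count scaling moved the median of all genes in sh-c-Myc to 0.16 and that of the members to 0.46.

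The second question was how the genes stood in cells with the Bcl-2 hairpin. None of the 38 members passed for this hairpin by edgeR, DESeq2 or limma-voom, where 0.0156% of 12855 genes rose and 0.0156% fell by edgeR. At an unadjusted p under 0.05, 1 member was higher (ATG3) and 4 were lower (ATG16L2, GABARAPL1, ATG13 and FKBP8), against 7.51% of all genes in either direction. The shares by direction over all genes were not computed here either. The median log2 fold change was -0.03 for the members and 0.02 for all genes. Against shControl, sh-Bcl2 had 0 members higher and 0 lower at 2-fold (all genes 2.45% and 2.16%) and 0 in either direction at 1.5-fold (all genes 4.56% and 5.62%). Intervals off a ratio of 1 were found for 12 higher and 7 lower members (all genes 22% and 23.1%). The members' ratios ran from -0.57 to 0.38 on the log2 scale.

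Some small ratios recurred in both pairs that differ by the Bcl-2 hairpin, sh-Bcl2 over shControl and the double knockdown over sh-c-Myc. In both pairs 8 members were higher with intervals off a ratio of 1, where 10.7% of genes were, and 5 were lower, where 6.68% were. The 8 were the conjugation genes ATG3, ATG4C and ATG5, the lipid kinase genes PIK3C3 and PIK3R4, and the receptor genes NBR1, SQSTM1 and TAX1BP1. The 5 were ATG101, ATG13, ATG16L2, FKBP8 and GABARAPL1. The Bcl-2 pairs shared 0 members at 1.5-fold (all genes 0.337% higher and 1.11% lower) and 0 at 2-fold (all genes 0.132% and 0.359%). These intervals cover counting error only, and the edgeR test, which adds spread between libraries, called 0 of them.

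**Figure D4:**
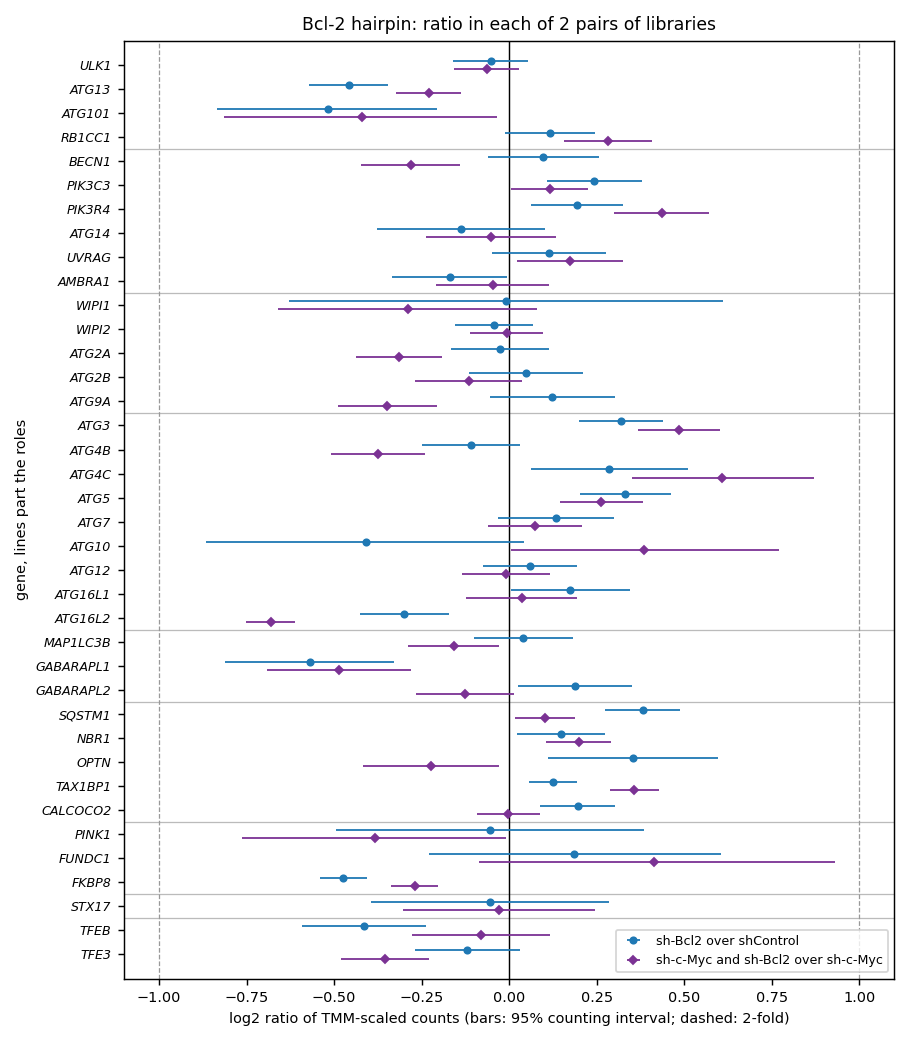
Log2 ratio of TMM-scaled counts for the Bcl-2 hairpin in 2 pairs of libraries, sh-Bcl2 over shControl (blue circles) and the double knockdown over sh-c-Myc (purple diamonds), with bars for the 95% counting interval and dashed lines at 2-fold. No point reaches a dashed line, and ATG16L2 (-0.30 and -0.68), GABARAPL1 (-0.57 and -0.48) and FKBP8 (-0.47 and -0.27) lie below 0 in both pairs.

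GABARAPL1, a GABARAP paralogue that is conjugated to the autophagosome membrane, stood at 16.4 CPM in sh-Bcl2 against 24.4 CPM in shControl and at 21.6 CPM in the double knockdown against 30.3 CPM in sh-c-Myc. The lower library of each pair was the one with the Bcl-2 hairpin. Its log2 fold change for the Bcl-2 hairpin was -0.53 ± 0.20 (SE, edgeR adjusted p = 0.616). FKBP8 stood at 218 CPM in sh-Bcl2 against 302 CPM in shControl and at 216 CPM in the double knockdown against 260.3 CPM in sh-c-Myc (log2 fold change -0.37 ± 0.16, edgeR adjusted p = 0.643). ATG3, the E2-like enzyme for LC3, stood at 88.0 CPM in sh-Bcl2 against 70.6 CPM in shControl and at 90.0 CPM in the double knockdown against 64.3 CPM in sh-c-Myc (log2 fold change 0.40 ± 0.16, edgeR adjusted p = 0.635). ATG16L2, which rose with the c-Myc hairpin, had a log2 fold change of -0.49 ± 0.16 for the Bcl-2 hairpin (edgeR adjusted p = 0.573). With the GC and length trend removed its ratios in these pairs were -0.14 and -0.46. BECN1, whose product binds BCL-2, stood at 46.1 CPM in sh-Bcl2 against 43.1 CPM in shControl and at 47.3 CPM in the double knockdown against 57.5 CPM in sh-c-Myc (edgeR adjusted p = 0.913).

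The double knockdown was also set against shControl and against sh-c-Myc. Compared with shControl, 2 members were higher at 2-fold (all genes 7.11%), again ATG16L2 at a log2 ratio of 1.13 [1.03 to 1.24] and WIPI1 at 1.18 [0.68 to 1.72], and 1 was lower (all genes 5.99%). The lower one was ATG101, at 6.27 CPM in the double knockdown against 14.2 CPM in shControl, a log2 ratio of -1.17 [-1.54 to -0.82]. With log2(FPKM + 1) in place of counts it was -0.81. Over shControl it lay at -0.75 in sh-c-Myc and at -0.52 in sh-Bcl2, and these 3 comparisons share the control library. At 1.5-fold 6 members were higher (all genes 13.4%) and 2 lower (all genes 14.9%). NBR1 at 0.90, SQSTM1 at 0.72, PIK3C3 at 0.66 and ATG7 at 0.61 were the further higher ones, and TFEB at -0.64 the further lower one. Intervals off a ratio of 1 were found for 21 higher and 5 lower members (all genes 29.4% and 33.2%). The members' median was 0.16, with -0.01 for all genes.

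Compared with sh-c-Myc, the double knockdown had 0 members higher and 0 lower at 2-fold (all genes 1.66% and 4.7%). At 1.5-fold ATG4C was higher at 0.61 [0.35 to 0.87] (all genes 5.96%) and ATG16L2 lower at -0.68 [-0.75 to -0.61] (all genes 9.06%). With the GC and length trend removed these values were 0.38 for ATG4C and -0.46 for ATG16L2. Of the 38 members 11 were higher and 13 lower with intervals off a ratio of 1 (all genes 31.5% and 22.6%). The median was -0.05 for the members and 0.03 for all genes.

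The double knockdown departed from the sum of both single knockdowns in a minority of the members. The departure is its log2 ratio to shControl minus those of both single knockdowns, with counting intervals only and no test. Its interval lay wholly below 0 for 11 of 38 members (all genes 18.8%) and wholly above 0 for 6 (all genes 29.2%). For the other members the interval included 0. The median departure was -0.04 for the members and 0.05 for all genes. The lowest were OPTN at -0.58 [-0.88 to -0.27] and ATG9A at -0.47 [-0.70 to -0.25], both higher in sh-c-Myc than in the double knockdown. The highest was ATG10 at 0.79 [0.22 to 1.36], which stood at 6.61 CPM in sh-c-Myc, 5.02 CPM in sh-Bcl2, 8.64 CPM in the double knockdown and 6.67 CPM in shControl. ATG16L2 lay at -0.38 [-0.52 to -0.24] and MAP1LC3B at -0.20 [-0.39 to -0.01].

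Further genes around the pathway were read from lists of 6 kinds, with the c-Myc hairpin test and the shares of 9.24% higher and 14.2% lower over all genes. Of 18 tested autophagy core genes outside the members 3 rose and 0 fell. These were WDR45, a paralogue of the WIPI genes, at a log2 fold change of 0.98 ± 0.21 (edgeR adjusted p = 0.00669), the autophagosome maturation gene TECPR1 at 0.72 and ZFYVE1 at 0.72. WDR45 stood at 32.6 CPM in sh-c-Myc against 14.7 CPM in shControl and at 23.5 CPM in the double knockdown against 13.3 CPM in sh-Bcl2. Of 19 fusion genes 1 rose, the SNARE gene STX7 at 0.53, and 1 fell, the tethering gene TGFBRAP1 at -0.56.

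Of 17 further mitophagy genes 1 rose and 3 fell. BNIP3L, which encodes the outer membrane receptor NIX, rose by 0.60 ± 0.18 on the log2 scale (edgeR adjusted p = 0.0328). It stood at 56.0 CPM in sh-c-Myc against 31.5 CPM in shControl and at 38.7 CPM in the double knockdown against 29.9 CPM in sh-Bcl2. Those that fell were VDAC1, a channel of the outer membrane and a Parkin substrate, with a log2 fold change of -1.23 ± 0.17 (edgeR adjusted p = 0.000969), the phosphatase gene PGAM5 at -1.22 and the prohibitin gene PHB2 at -0.75. All 3 have general mitochondrial roles beside mitophagy. VDAC1 stood at 126 CPM in sh-c-Myc against 345 CPM in shControl and at 172 CPM in the double knockdown against 349 CPM in sh-Bcl2.

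Among 20 genes of mTORC1 and AMPK control 1 rose, the sestrin gene SESN3 at 0.80, and 2 fell, SESN1 and the mTOR subunit gene MLST8, both at -0.61. Among 21 genes that control TFEB, MITF and FOXO factors 4 rose and 0 fell. TFEC, a relative of TFEB, had a log2 fold change of 1.20 ± 0.16 (edgeR adjusted p = 0.000774) and stood at 122 CPM in sh-c-Myc against 51.5 CPM in shControl and at 119 CPM in the double knockdown against 53.6 CPM in sh-Bcl2. The Rag GTPase genes RRAGB and RRAGD, whose products recruit TFEB and mTORC1 to the lysosome, rose by 1.03 and 0.92, and the folliculin partner gene FNIP1 by 0.60. Of 20 lysosome genes with known TFEB sites 6 rose and 0 fell, from the peptidase gene TPP1 at 1.26 ± 0.19 (edgeR adjusted p = 0.00115) to LAMP2 at 0.50 ± 0.17 (edgeR adjusted p = 0.0491). The protease and chloride transporter genes CTSA and CLCN7 were among the others, at 1.01 and 0.67. The median log2 fold changes were 0.40 for this list, 0.11 for the TFEB control list, 0.12 for the core list and -0.22 for the mitophagy list. For the Bcl-2 hairpin 0 genes of these lists passed, where 0.0156% of all genes rose and 0.0156% fell. The closest was DDIT4 of the mTORC1 and AMPK list, at a log2 fold change of -1.14 ± 0.18 (edgeR adjusted p = 0.0582). DDIT4 stood at 44.3 CPM in sh-Bcl2 against 118 CPM in shControl and at 41.4 CPM in the double knockdown against 76.1 CPM in sh-c-Myc.

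Myeloid markers moved with the same libraries. Of 11 tested monocyte and macrophage markers 7 rose with the c-Myc hairpin and 0 fell (median log2 fold change 1.31), and of 5 tested granule genes 4 rose and 0 fell (median 1.62). The 7 were CSF1R, LYZ, S100A8, S100A9, ITGAM, CX3CR1 and MPEG1, with log2 fold changes from 1.04 (CX3CR1) to 2.65 (CSF1R). The tested markers CCR2, FCGR1A, CTSS and CD163 did not pass. The summed granule markers were 4531 CPM in sh-c-Myc, 1512 CPM in sh-Bcl2, 4525 CPM in the double knockdown and 2284 CPM in shControl. Of these sums AZU1 alone held 2523 CPM in sh-c-Myc, 812 CPM in sh-Bcl2, 2179 CPM in the double knockdown and 1387 CPM in shControl. CTSG, the tested granule gene that did not pass, stood at 272 CPM in sh-c-Myc, 144 CPM in sh-Bcl2, 206 CPM in the double knockdown and 344 CPM in shControl. Of the 19 monocyte markers, those without a count or a row numbered 2 in sh-c-Myc, 5 in sh-Bcl2, 2 in the double knockdown and 5 in shControl. VCAN had no count in sh-c-Myc, sh-Bcl2 and shControl, and MRC1 had none in sh-Bcl2, the double knockdown and shControl. CD68 had none in sh-Bcl2 and shControl, CD300E none in sh-Bcl2, and FCGR3A none in shControl. The part of this myeloid shift in the autophagy and lysosome values was not tested. The sh-c-Myc library also held counts for 21426 genes, against 19450 in shControl, and the part of this was not tested either.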

How the data were processed

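RNA of 4 libraries, 1 per group, was sequenced, and the deposited table holds raw read counts and FPKM per gene, per the file headers. The authors used HISAT2 and HTSeq 0.13.5 on GRCh38, per the submitters' processing notes, while the sources used here give neither the annotation release nor the strand setting. The authors' FPKM divides counts by gene length and library size, per the file headers, and the lengths behind the 40 members equal GENCODE exon unions within 0.01 base. FPKM served for levels between genes and, as log2(FPKM + 1), for an alternative to the count ratios between libraries.

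Counts were scaled with TMM factors (edgeR 4.0.16), and log2 ratios of 2 libraries used a prior count of 0.5 with exact binomial 95% intervals, which cover counting error only. Genes needed 1 CPM in at least 1 library, and a call needed 2-fold with an interval off a ratio of 1. The 2 by 2 fit, with 1 term per hairpin, took genes with 1 CPM in at least 2 libraries. DESeq2 1.42.0, limma 3.58.1, other scalings, filters, FPKM and a GC and length trend were alternatives. Libraries were grouped by their labels. Members were named where they passed the fit or 1.5-fold, or were extreme in a comparison. The LC3 and GABARAP family, ULK1, BECN1, SQSTM1, PINK1, TFEB and TFE3 were named whatever their values. Listed pathway genes were named where they were the highest or lowest past the threshold. Other members and other listed genes named in the text were chosen after their values were seen. The members and lists were chosen with earlier results of these data known. Some genes of the lysosome list are not reported here by name.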

Additional observations from a re-analysis of the deposited data

Results flagged for a closer look

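OPTN, the mitophagy receptor gene, had opposite ratios in the pairs of libraries that differ by the Bcl-2 hairpin. Its log2 ratio was 0.35 [0.11 to 0.60] in sh-Bcl2 over shControl and -0.22 [-0.42 to -0.03] in the double knockdown over sh-c-Myc. It was singled out because the intervals lie on opposite sides of 0. The difference between the pairs is the same quantity as the OPTN departure from additivity given above, -0.58 [-0.88 to -0.27]. It was not tested. Among the 13646 genes 10.5% did the same.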

How the results depend on the processing

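No paired analysis was possible because the groups share only 1 replicate number, and leaving out a library was not run because 3 libraries leave the 2 by 2 fit no residual degree of freedom. No result changed sign where it had been called. For the c-Myc hairpin the number of members that rose, 9 by edgeR with TMM, was 3 with DESeq2, 4 with DESeq2 size factors, 15 with total counts, 14 with upper quartile factors, 6 without a filter and 9 with limma-voom. Without a filter 1 member, ATG101, fell. ATG14 lost its call with DESeq2 alone, ATG9A and SQSTM1 also with DESeq2 size factors, and ATG13, ATG7 and PIK3C3 also without a filter. The members' median log2 ratio in sh-c-Myc over shControl was 0.46 with total counts and 0.46 with upper quartile factors, where the median of all genes moved to 0.16 in both. At 1.5-fold in place of 2-fold, the members higher and lower numbered 6 and 3 in sh-c-Myc over shControl, 6 and 2 in the double knockdown over shControl, 1 and 1 over sh-c-Myc, and 5 and 1 over sh-Bcl2. With log2(FPKM + 1) the double knockdown had 1 higher and 0 lower over shControl and 1 higher over sh-Bcl2. Removing the GC and length trend moved 17 of 110 values by more than their counting error. The cause of these shifts was not tested. ULK2 and GABARAP had at most 3 counts in a library, too few for a ratio, and the cause was not tested.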
